A study of Glycine max with 4 samples.

Results

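The soybean gene Glyma.01G153300, described as CYP707A1, lies at one of the strongest and widest GmWRI1 peaks in embryos at the early maturation (em) stage, as measured by sequencing of immunoprecipitated chromatin (ChIP-Seq). The locus was defined by coordinates, as every peak that overlapped chromosome 1 from 49048835 to 49052824 (Wm82.a2.v1, 1-based). This interval held 1 of 22982 peaks in replicate 1 and 1 of 20027 peaks in replicate 2, and both peaks formed 1 of 15181 shared regions. A shared region was a merged interval with a peak of each replicate and an overlap of at least 1 bp. Across the genome, 58.1% of the 26116 merged intervals were shared, and 68.4% of peaks in replicate 1 and 81.7% of peaks in replicate 2 overlapped a peak of the other. The locus was chosen for the strength and width of its peak in these libraries, so those values are given as a description, with no test.

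CYP707A genes encode abscisic acid hydroxylases, the cytochrome P450 enzymes that carry out the first committed step in the breakdown of abscisic acid. Abscisic acid (ABA) is the hormone that accompanies seed maturation, storage reserve accumulation and dormancy, and its level reflects the balance between synthesis and breakdown. In Arabidopsis, members of the CYP707A family act in developing seeds and during imbibition. GmWRI1 is the soybean counterpart of WRINKLED1, an AP2-type transcription factor best known for promoting fatty acid synthesis in seeds. Occupancy of a locus does not measure whether its gene is expressed, and no RNA values were used here.

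The embryos came from seeds of 6 to 7 mm at the em stage of the cultivar Williams 82. No genotype other than the cultivar and no treatment was given. The samples comprised 2 ChIP libraries, made with an antibody to a peptide of GmWRI1-A (Glyma.08G227700) that recognizes GmWRI1-B as well, and 2 input libraries of total chromatin without antibody. Signal from either GmWRI1 protein therefore cannot be told apart, and the replicates are labelled as biological. The values come from the authors' peak lists of both ChIP libraries.

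Each peak carries a fold enrichment, which divides the reads at its summit by the local background after 1 is added to both. Whole reads at the summits were recovered from these values. Peaks of replicate 1 had 20 to 420 reads at the summit, with a median of 37, and peaks of replicate 2 had 14 to 388, with a median of 26. The lowest background of any peak was 7.17 reads in replicate 1 and 3.80 in replicate 2. Intervals on reads are exact Poisson intervals at 95% and cover counting error only.

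In replicate 1, the CYP707A1 peak ran from 49048835 to 49052824, a width of 3990 bp. Its summit at 49051519 held 397 reads (359 to 438) over a background of 7.17, which gave a fold enrichment of 48.7. In replicate 2, the peak ran from 49049498 to 49052777, a width of 3280 bp. Its summit at 49051517 held 350 reads (314 to 389) over a background of 3.80, which gave a fold enrichment of 73.2. Both replicates thus had 1 uninterrupted peak of more than 3 kb, and the background at both summits was the lowest that the respective list held. Each listed peak carries 1 summit position, so the lists do not show whether the peak has further maxima.

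The mean fold enrichment was 60.9 ± 17.3 (SD, n = 2) and the mean width was 3635 ± 502 bp (SD, n = 2). Fold enrichment was 12.4 times the list median in replicate 1 and 15.5 times the list median in replicate 2. Width was 10.1 times the list median in replicate 1 and 9.19 times in replicate 2. The higher fold enrichment in replicate 2 went with fewer summit reads and a lower background. The ratio of replicate 2 to replicate 1 was 1.501 at the locus and had a median of 1.13 over all shared regions, 13.6% of which had a ratio at least as high. Over shared regions with a peak of at least 2000 bp in both replicates, the median ratio was 1.21.

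**Figure D1:**
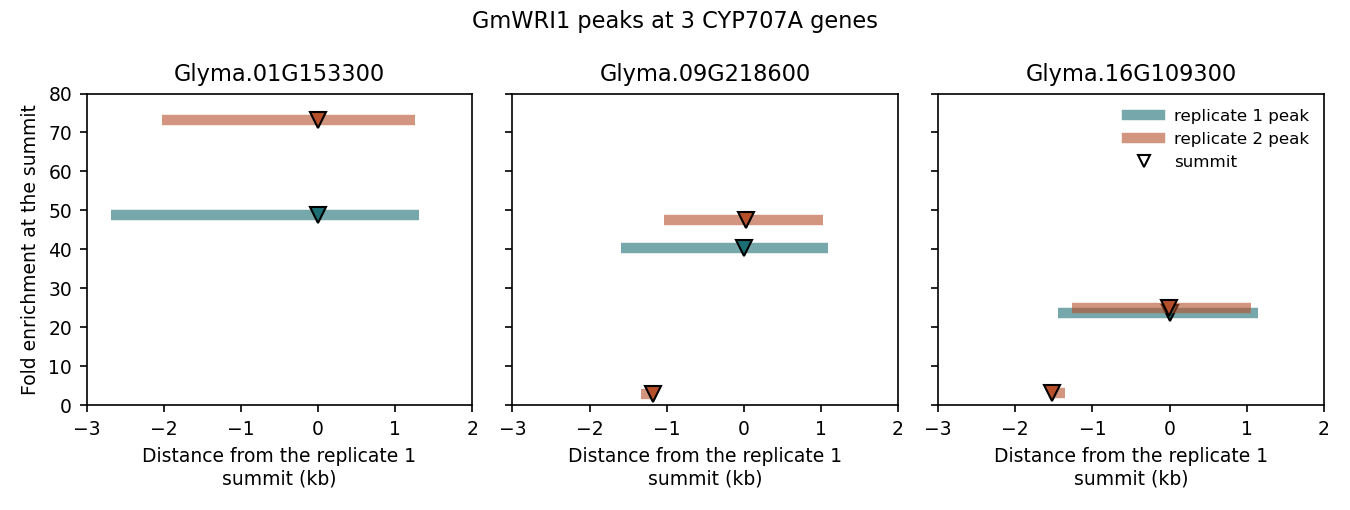
Peaks at the 3 CYP707A genes, without the small replicate 1 peak beyond the Glyma.01G153300 interval. Each bar spans the extent of 1 peak, with distance from the replicate 1 summit in kb on the horizontal axis and fold enrichment on the vertical axis, and triangles mark summits. At Glyma.01G153300 both summits fall at the same place, and the replicate 1 peak reaches 663 bp further on the lower-coordinate side.

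The summits of both replicates lay 2 bp apart, against a median of 40 bp over all shared regions and 28 bp over the 251 shared regions with a peak of at least 2000 bp in both replicates. A distance of 2 bp or less occurred in 4.62% of shared regions and in 4.38% of the wide ones. The summit did not lie in the middle of the peak. It was 2684 bp from the lower edge and 1305 bp from the upper edge in replicate 1, at 67.3% of the width. In replicate 2 it was 2019 bp from the lower edge and 1260 bp from the upper edge, at 61.6% of the width.

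The edges were matched less closely on one side than on the other. The upper edges of both replicates lay 47 bp apart, within the median of 69 bp for wide shared regions. The lower edges lay 663 bp apart, where the median for wide regions was 83 bp. Of the wide shared regions, 12.0% had an edge that differed by as much. The gene model and its strand were not used here, so neither side can be assigned to the promoter, exons, introns or the end of the gene.

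The locus ranked 7th of 22982 peaks by fold enrichment in replicate 1 and 10th of 20027 in replicate 2. By mean rank over both replicates it stood at rank 3 of 15181 shared regions, the top 0.0198%, tied with a region on chromosome 13 from 15759024 to 15760403. By mean fold enrichment it stood at rank 9. The tied region had fold enrichments of 49.9 and 70.7 but a mean width of only 1356 bp. The ranks above were held by a region on chromosome 7 from 16671134 to 16673316 (50.3 and 77.9) and a region on chromosome 9 from 40519464 to 40525267 (49.3 and 75.2). These 4 regions differed by less in each replicate than the replicates differed from each other.

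On chromosome 1, the peak had the highest fold enrichment of all 1044 peaks in replicate 1 and of all 972 peaks in replicate 2. The next fold enrichment on the chromosome was 48.0 in replicate 1 and 67.1 in replicate 2, so the lead in replicate 1 was small. Other measures placed the peak high but less extreme. By reads at the summit it ranked 45th in replicate 1 and 40th in replicate 2, at 94.5% and 90.2% of the highest summit in each list. By −log10 p, which was 526 in replicate 1 and 541 in replicate 2, it ranked 18th and 21st.

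**Figure D2:**
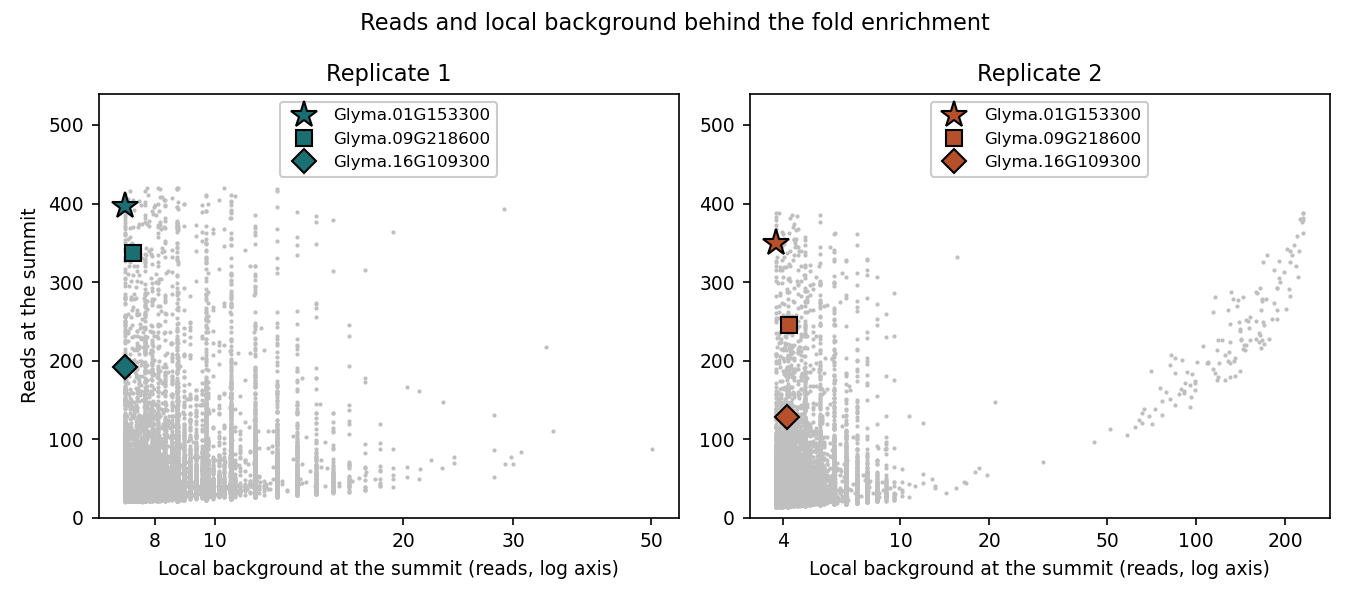
Reads at the summit against local background (reads, log axis) for every peak of each replicate in grey, with the peaks at 3 CYP707A genes marked. The star for Glyma.01G153300 sits at the left edge in both panels, at 397 reads over 7.17 in replicate 1 and at 350 reads over 3.80 in replicate 2.

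The background bears on these ranks. Of all peaks, 11.6% in replicate 1 and 9.02% in replicate 2 had the lowest background of their list, as the CYP707A1 peak did. At this background a given number of reads gives the highest fold enrichment that the list allows. The ranks by reads alone, 45th and 40th, use no division by the background, but the reads include it, and peaks over a high background enter these ranks.

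Width placed the locus at rank 26 of 15181 shared regions, the top 0.171%. The peak was the 23rd widest in replicate 1 and the 37th widest in replicate 2. Peaks of at least 2000 bp made up 1.75% of the list of replicate 1 and 1.41% of the list of replicate 2, and 1.65% of shared regions had such a peak in both. Among these 251 wide shared regions, the locus had the 2nd highest mean rank of fold enrichment.

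Of 50 shared regions with a mean fold enrichment within 1.2-fold of the locus, 10 were wider, and their median width was 2196 bp. Of 50 shared regions with a mean width within 1.2-fold of the locus, 3 had a higher mean fold enrichment. Their median fold enrichment was 24.7, with a range of 8.27 to 62.7.

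**Figure D3:**
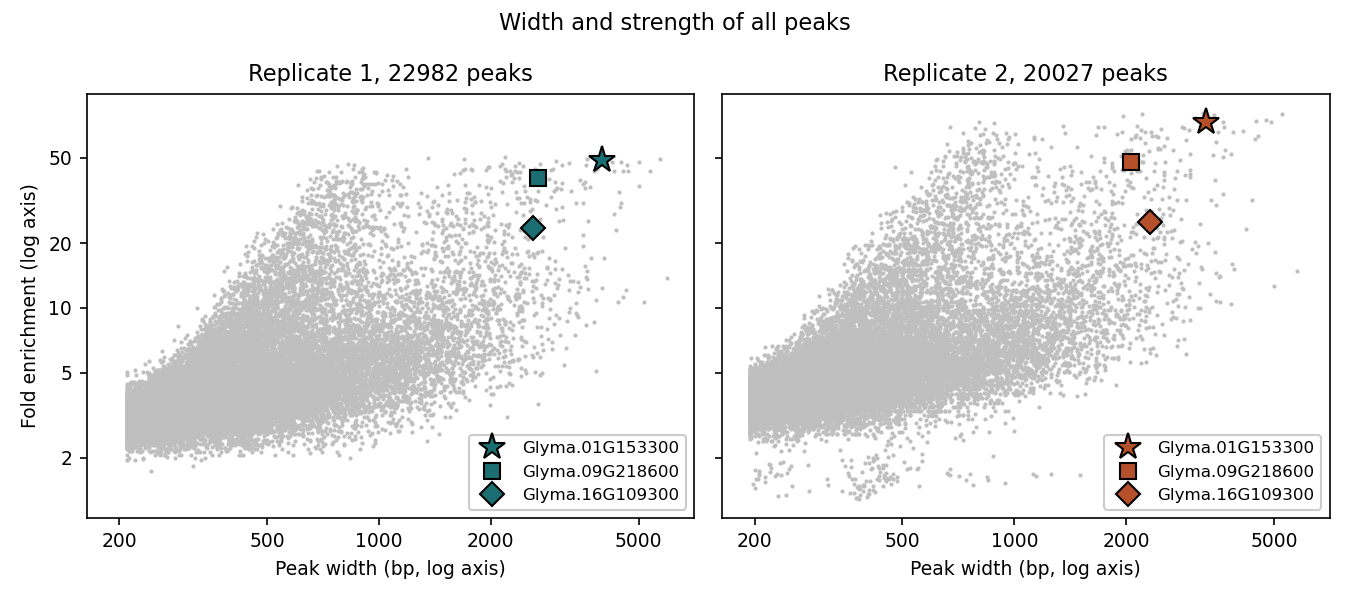
Peak width (bp, log axis) against fold enrichment (log axis) for all 22982 peaks of replicate 1 and all 20027 peaks of replicate 2 in grey. The star for Glyma.01G153300 lies at the upper right of both panels, at 3990 bp and 48.7 in replicate 1 and at 3280 bp and 73.2 in replicate 2, with Glyma.09G218600 and Glyma.16G109300 below and to its left.

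The nearest peaks outside the interval were weak. In replicate 1 a small peak from 49053013 to 49053299, which the study's table also places at Glyma.01G153300, began 188 bp beyond the interval. It had a fold enrichment of 2.91 from 30 reads and no counterpart in replicate 2. In replicate 2 the nearest peak outside ran from 49045717 to 49045971, 2863 bp away, with a fold enrichment of 4.04.

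The study's table of bound genes describes a further 2 genes as members of the CYP707 family, Glyma.09G218600 and Glyma.16G109300. The table was held only in part, so other CYP707 genes were not analysed here, and it lists bound genes only. Both genes were found on its list for the earlier cotyledon (cot) stage, a separate ChIP experiment not analysed here. Glyma.01G153300 was on the lists for both stages. The em stage list was held for chromosome 1 alone, so genes on other chromosomes could not be found on it. As the table lists bound genes only, having a peak is no finding for these genes. Whether a listing at the cot stage goes with larger peaks at the em stage was not tested. Apart from CYP707A1, whose peak was chosen for its size, both of the other 2 genes had a shared region with a peak of at least 2000 bp in both replicates, as 1.65% of shared regions did. Both also had fold enrichments in the top 5% of each list. This held for 5.94% of shared regions, with limits of 14.8 in replicate 1 and 18.4 in replicate 2.

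At Glyma.09G218600, the replicate 1 peak ran from 44168249 to 44170925 on chromosome 9, a width of 2677 bp. Its summit at 44169836 had 337 reads (302 to 375) over 7.38, a fold enrichment of 40.3. In replicate 2 the main peak ran from 44168806 to 44170865, a width of 2060 bp, and its summit at 44169860 had 246 reads (216 to 279) over 4.19, a fold enrichment of 47.6. The mean fold enrichment was 44.0 ± 5.15 (SD, n = 2), which placed the region at rank 102 of 15181. Its summits were 24 bp apart, and its width ranked 177th.

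At Glyma.16G109300, the replicate 1 peak ran from 23420443 to 23423036 on chromosome 16, a width of 2594 bp. Its summit at 23421893 had 192 reads (166 to 221) over 7.17, a fold enrichment of 23.6. In replicate 2 the main peak ran from 23420630 to 23422946, a width of 2317 bp, and its summit at 23421884 had 128 reads (107 to 152) over 4.15, a fold enrichment of 25.04. The mean fold enrichment was 24.3 ± 0.997 (SD, n = 2), at rank 550 of 15181. Its summits were 9 bp apart, and its width ranked 153rd.

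By fold enrichment and by summit reads, the order in each replicate was CYP707A1, Glyma.09G218600 and Glyma.16G109300. CYP707A1 was chosen from these lists for its strong peak, so its first place follows from that choice. The intervals that follow are a description and no test of this order. In replicate 1 the read intervals of CYP707A1 (359 to 438) and Glyma.09G218600 (302 to 375) overlapped. In replicate 2 they did not (314 to 389 and 216 to 279). The intervals of Glyma.16G109300 lay below both in each replicate. The SD of 17.3 at CYP707A1 is close to the difference of its mean from that of Glyma.09G218600. This SD is the spread between replicates at 1 locus, not the spread of the difference between the loci. Fold enrichments were 48.7 against 40.3 in replicate 1 and 73.2 against 47.6 in replicate 2. With 2 replicates, the size of the step between these loci is poorly known.

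At all 3 loci the upper edges of both replicates lay within 90 bp (47, 60 and 90 bp), and the lower edges lay further apart (663, 557 and 187 bp). An edge difference as large as at Glyma.09G218600 was found in 15.1% of wide shared regions, and one as large as at Glyma.16G109300 in 43.4%, where the median of the larger edge difference was 152 bp. The replicate 1 peak was the longer on both sides at each locus, and peaks of replicate 1 were wider over the whole list, with a median of 395 bp against 357 bp. At Glyma.09G218600 replicate 2 had a separate small peak from 44168497 to 44168690, with a fold enrichment of 2.99 from 18 reads, inside the single peak of replicate 1. At Glyma.16G109300 replicate 2 likewise had a small peak from 23420338 to 23420537 (fold enrichment 3.13, 18 reads) at the lower edge of the replicate 1 peak. At CYP707A1 replicate 2 had no such small peak. A small separate peak was called there in replicate 1 instead, from 49053013 to 49053299, beyond the upper edge of the main peak. The sources used here do not say how reads that map to more than 1 place were treated, so reads shared between similar CYP707A copies cannot be told apart.

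Other ABA genes of the same table were picked by role, in a list made with earlier results of these data known. The list is not a full set of ABA genes. ABI3 and ABI4, which the study names among GmWRI1 direct targets, are not on it. Of 9 genes, 7 had a shared region and 2 had a peak in replicate 2 only. None of the 9 had a peak of at least 2000 bp in both replicates, where 1.65% of shared regions had one. In the top 5% of fold enrichment in both was 1 of the 9, where 5.94% of shared regions were. Over the 7 genes with a shared region, the median of mean fold enrichments was 9.63, with a range of 3.69 to 21.0. For the 2 CYP707 genes other than the chosen locus the median was 34.2, with a range of 24.3 to 44.0. With CYP707A1, whose peak was chosen for its size, the median was 44.0 and the range 24.3 to 60.9. The median over all shared regions was 5.03. The comparison mixes the stages of the table. All 3 CYP707 genes were on its list for the cot stage, and so were 5 of the other ABA genes, all 5 with a shared region, at mean fold enrichments of 9.08 to 21.0 (median 12.7). The other 4 were found only on the em stage list, which was held for chromosome 1 alone, and 2 of them had a shared region, at 3.69 and 4.61. Role and list therefore cannot be told apart in what follows.

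NCED5 (Glyma.08G096200) stands for ABA synthesis, in which NCED enzymes cleave a carotenoid precursor. Its peak had a fold enrichment of 10.5 in replicate 1 and 8.72 in replicate 2, with 95 and 61 reads. NCED4/CCD4 (Glyma.01G154900), whose Arabidopsis homolog cleaves carotenoids, had 2 shared regions, and the stronger had 4.51 in replicate 1 and 4.71 in replicate 2. This gene lies on the same chromosome as CYP707A1, 191 kb beyond its peak. NCED5 was on the cot stage list and NCED4/CCD4 on the em stage list.

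Among transporters, ABCG40 (Glyma.13G361900), an ABA importer in Arabidopsis and on the cot stage list, had 2 shared regions. One had fold enrichments of 15.5 and 9.83 and the other 12.5 and 11.9. NRT1:2 (Glyma.01G042100), a transporter that carries ABA in Arabidopsis and was on the em stage list, had a peak only in replicate 2, at 3.96 from 18 reads.

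Both receptor genes were found only on the em stage list. PYL4 (Glyma.01G124700) had a shared region at 3.47 in replicate 1 and 3.91 in replicate 2. PYL1 (Glyma.01G018800) had a peak only in replicate 2, at 4.09 from 21 reads. A peak missing from a list says only that none passed the authors' threshold there.

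The phosphatase and response genes were all on the cot stage list. Among the phosphatases that hold ABA signalling down, ABI1 (Glyma.08G033800) had fold enrichments of 7.70 and 10.5 in replicates 1 and 2. PP2CA (Glyma.11G222600) had 16.2 in replicate 1 and 11.3 in replicate 2. RAS1 (Glyma.07G151600), named for its response to ABA and salt in Arabidopsis, had the strongest region of the list, at 19.1 in replicate 1 and 22.9 in replicate 2 with widths of 1514 and 1528 bp. The RAS1 peak came close to that of Glyma.16G109300 in both replicates. In replicate 1 RAS1 had 184 reads (158 to 213) against 192 (166 to 221), and in replicate 2 it had 125 (104 to 149) against 128 (107 to 152), so the intervals overlapped in each.

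**Figure D4:**
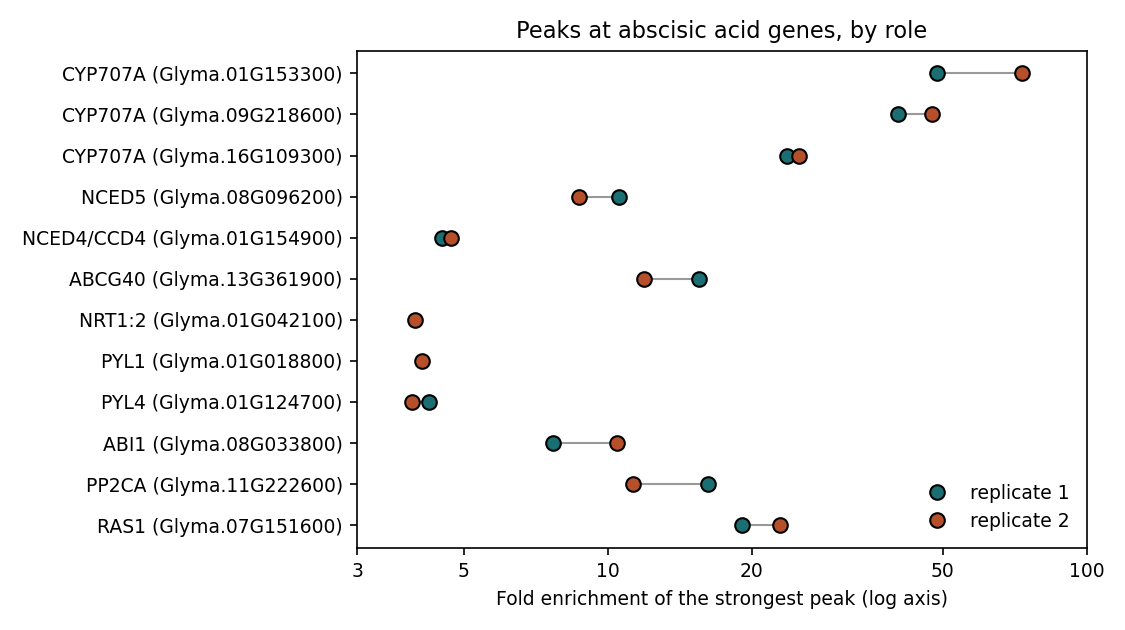
Fold enrichment (log axis) of the strongest peak of each replicate at ABA genes, with breakdown genes at the top, then synthesis, transport, receptor, phosphatase and response genes. The 3 CYP707A genes lie at 23.6 or above in both replicates and the other genes at 22.9 or below, and NRT1:2 and PYL1 have a point for replicate 2 only.

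Other cytochromes P450 of the table were looked up after the values above were seen. Of 10 such genes, some of which share 1 peak, all 10 had a shared region, which is no finding in a table of bound genes. A peak of at least 2000 bp in both replicates was found at 1 gene and at 1.65% of shared regions. In the top 5% of fold enrichment in both were 3 genes, and 5.94% of shared regions. Glyma.04G035300 and Glyma.04G035400, both among these 3, share 1 peak. The median fold enrichment of the 10 genes was 9.10, with a range of 4.89 to 50.4. The strongest, CYP71A26 (Glyma.09G260900), had fold enrichments of 38.5 and 62.3 but widths of 774 and 969 bp, and so was strong without being wide. The gene that passed 2000 bp in both replicates was DWF4 (Glyma.01G175500), which in Arabidopsis acts in brassinosteroid synthesis. Its widths were 2710 and 2422 bp, with fold enrichments of 4.87 and 9.25. LUT1 (Glyma.13G147500) fell just short in replicate 2, with 2076 and 1975 bp at 6.34 and 13.4. The peak shared by Glyma.04G035300 and Glyma.04G035400 had 1875 and 1673 bp at 18.1 and 20.6. Neither high strength nor large width was thus limited to the CYP707 family among these P450 genes.

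The neighbourhood of the locus was not crowded with strong peaks. Within 50 kb of either edge of the interval, replicate 1 had 7 other peaks and replicate 2 had 6. They formed 4 shared regions, with mean fold enrichments of 3.55 to 10.7, and 4 peaks of a single replicate. Over all shared regions the median number of shared neighbours in this distance was 3, and 43.5% had at least 4. The CYP707A1 peak was 4.67 times as strong as the next in replicate 1 and 6.62 times in replicate 2.

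The nearest shared region ran from 49045601 to 49045999, 2835 bp below the interval, with 3.05 in replicate 1 and 4.04 in replicate 2, and the table gave no gene there. At Glyma.01G153100, described as decapping 5-like, the region from 49022328 to 49023529 had 5.69 and 7.56. At Glyma.01G153000, a protein with domain DUF1218 of unknown function, the region from 49017829 to 49018472 had 3.11 and 5.20. These 3 regions were all on the lower-coordinate side.

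On the other side, the only shared region lay 49852 bp beyond the interval, from 49102677 to 49103502, at Glyma.01G153600. This gene, described as xyloglucanase 113, had 10.4 and 11.04, the strongest of the neighbours. A peak of replicate 2 alone, from 49096063 to 49096625, had a fold enrichment of 1.93, from 326 reads over a background of 168. It belonged to 97 peaks of replicate 2 (0.484%) with a background above 100 reads, of which replicate 1 had 0.

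**Figure D5:**
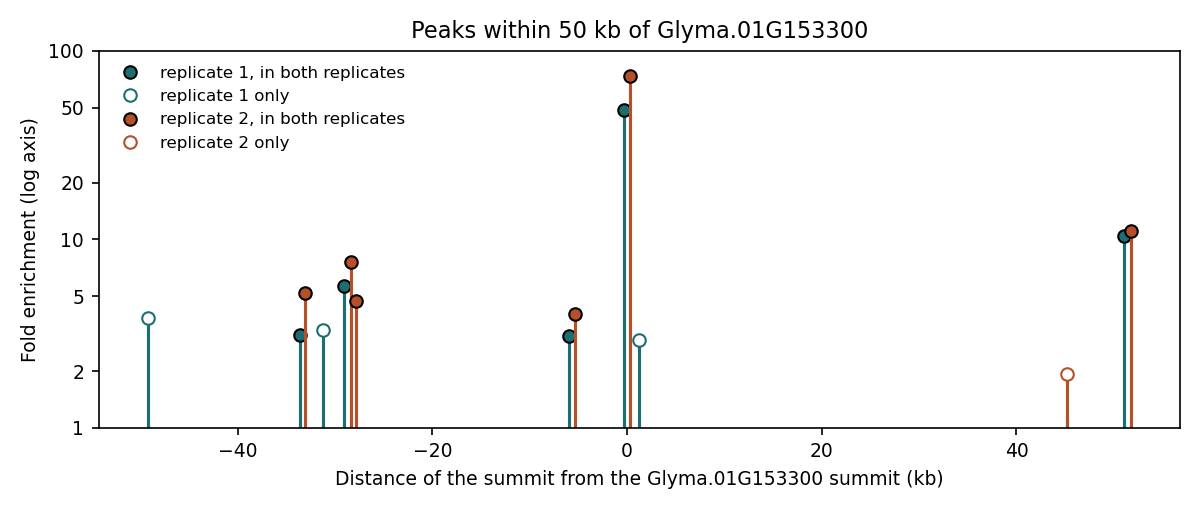
Fold enrichment (log axis) of each peak within 50 kb of the Glyma.01G153300 interval, against the distance of its summit from the Glyma.01G153300 summit in kb. Filled points belong to shared regions and open points to peaks of 1 replicate, and those of the 2 replicates are drawn slightly apart. The CYP707A1 peak, at 48.7 and 73.2, stands above all neighbours, the highest of which are at 10.4 and 11.04.

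The 5 shared regions most like the locus were found by distance in log2 width and log2 fold enrichment, each divided by its SD over the 15181 shared regions. The nearest, at Glyma.06G298000, a gene of domain family DUF566 on chromosome 6, had 46.2 and 79.2 with widths of 3605 and 3456 bp. The next were Glyma.09G173300 (47.9 and 67.5) and Glyma.16G006100 (49.6 and 69.5), both described as unknown proteins. Glyma.06G119800, whose best Arabidopsis match is an embryo defective gene, had 43.5 and 81.1. Glyma.02G235700, described as a with no lysine kinase, had 50.6 and 65.8. Their summits lay 36, 24, 126, 7 and 420 bp apart between replicates, in the order given, so each differed more than the 2 bp at CYP707A1. None of these 5 was described as an ABA gene.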

How the data were processed

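Peaks of 2 ChIP libraries were analysed, and the 2 inputs had no list of their own here. The submitters' processing notes name Bowtie 0.12.7 and MACS2 (no version stated), whereas the study's methods name MACS3, so the deposited lists need not be those the study used. The deposited fold enrichment compares, in the authors' files, summit reads with the local background as a ratio. The authors' lists also hold −log10 p and −log10 q values and a display score of 10 times −log10 q, which was not used. Peak names carry a q threshold of 0.01. Coordinates were read as Wm82.a2.v1, the build of the study's gene tables. Whole reads were solved from fold enrichment and −log10 p, within 0.001, for 100% of peaks. On 20000 simulated peaks the right number was returned for 100%. These peaks were made with the same formulas and a narrower range of background than the lists hold. The simulation therefore checks the solving step only. Total depth is not known from the lists.

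The members and lists were chosen with earlier results of these data known. Genes were linked to peaks by positions in the study's table of bound genes, held in part (cot stage list to chromosome 16, em stage list for chromosome 1), with no set test. Named genes were those described as CYP707, the ABA list, genes at peaks within 50 kb and the 5 most similar regions. The search of promoters for the AW box was not run, and no sequence was used. Alternatives were another measure of strength, the stronger 50% of peaks, a −log10 q minimum of 10, 50% reciprocal overlap, summits within 100 bp, other windows and each replicate alone. Python 3.11.15, numpy 2.4.6, pandas 2.3.3, scipy 1.17.1 and matplotlib 3.10.9 were used.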

Additional observations from a re-analysis of the deposited data

How the results depend on the processing

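Of 29 alternatives, 20 left the value within the spread between replicates, or a count within 1.5 times, and 9 moved it. Some of the 20 could not move, so their number does not measure robustness. The locus had 1 summit per replicate, so other choices of summit changed nothing. With 2 replicates, the fold enrichment of either always lies within 1 SD of their mean. A gene count from 1 replicate alone cannot fall below the count from both. The rank of CYP707A1, in the top 0.0198% of shared regions by fold enrichment, was in the top 0.119% by −log10 p and 0.119% by −log10 q, and in the top 0.0374% with −log10 q of at least 10. From 1 replicate alone it ranged from 0.0461% to 0.0659%. The width rank, in the top 0.171%, was 0.324% with −log10 q of at least 10 and 0.152% to 0.244% from 1 replicate alone. The shared neighbours, 4 within 50 kb, were 1 within 25 kb and 2 with −log10 q of at least 10. Fold enrichment ranged from 48.7 to 73.2 over single replicates. The count of CYP707 genes was 3 under each alternative run, and that of other ABA genes ranged from 5 to 9. The 9 is from replicate 2 alone and needs no peak in replicate 1. All these genes came from a list of bound genes, and CYP707A1 was chosen for its peak, so the counts are description only. The AW box search and its alternative were not run. No paired analysis was possible because the results come from no test between groups, and the inputs have no list of peaks here. With 2 replicates, an SD has little precision, and the smallest summit listed in replicate 2 held 14 reads.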
